A study of Homo sapiens with 6 samples.

Results

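Interferon-stimulated genes, the sensors of foreign or misplaced nucleic acid and the genes of antigen presentation were followed as 1 set of 52 genes in U2OS cells, an established human osteosarcoma line. The 52 members were taken by gene symbol, and all 52 were found among the 60708 gene identifiers of the count files. The wild-type cells were kept for 4 days either in DMSO, the solvent, or in 25 µM PDD00017273, a compound that blocks PARG (poly(ADP-ribose) glycohydrolase), which takes poly(ADP-ribose) chains apart. The inhibitor group is called PARGi here. Each group had 3 libraries of total RNA, described by the submitters as biological triplicates, and every library came from the same line, so nothing is known from them about other cells. The comparison asks whether PARG inhibition changed the transcript levels of this innate immune set.

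As background, cells detect double-stranded RNA with RIG-I-like receptors and cytosolic DNA with cGAS, which signals through STING. Both routes activate the transcription factor IRF3 and lead to the secretion of type I interferon. Interferon binds its receptor, JAK1 and TYK2 are activated, and a complex that includes STAT2 and IRF9 binds the interferon-stimulated response element (ISRE) in the promoters of many antiviral genes. IRF1 acts on related sites, and many antigen presentation genes respond to interferon gamma.

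The depth was 60286931 to 80605145 counts per library. Levels are given as CPM, read counts relative to a library size scaled by edgeR's TMM method, with the SD over 3 libraries. The test was edgeR's quasi-likelihood test over all 20409 genes with enough counts, with a Benjamini-Hochberg adjusted p under 0.05 as the threshold. A log2 fold change (log2 change for short) above 0 means a higher level in PARGi. The 8 mesenchymal and osteoblast markers summed to between 9905 and 10690 CPM in a library, with COL1A1, SPARC, VIM and FN1 abundant and the osteoblast factor SP7 at 0 to 2 counts. Among these markers COL1A2 (-0.80), RUNX2 (-0.27) and SPARC (-0.083) fell and ALPL rose (0.23), with edgeR adjusted p-values of 1.6e-08, 4.96e-08, 0.00653 and 0.0364. The fall of COL1A2 was larger than any change among the members, and the part of these changes in the results was not tested. The 7 leukocyte markers summed to between 2.03 and 2.47 CPM in DMSO and between 2.06 and 2.27 CPM in PARGi, most of it from PTPRC at 78 to 102 counts and LCP1 at 50 to 64 counts in a library. Neither passed the test, and CD3E and TYROBP had 0 counts in all 3 PARGi libraries and 0 to 2 in DMSO. Libraries of bulk RNA cannot tell fewer cells expressing a gene from less RNA per cell.

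Inhibition of PARG was accompanied by small changes in some members, while ISG15, IFI6, MX1, IFIT1 and the OAS genes did not pass the threshold. TRIM22, IFI44L, SAMD9L and TAP1 rose most, TRIM25, IRF1, IFIT5, UBE2L6, TRIM21 and the kinase gene EIF2AK2 rose by less, and STAT2, IFITM3 and ISG20 fell. Of the 45 members with enough counts for a test, 13 (28.9%) passed the threshold, against 24.3% of all 20409 tested genes, so the share of called members was near the background. The members called higher numbered 10, where 13.2% of all tested genes were called higher, and those called lower numbered 3, where 11% of all genes were. The share of higher calls was 76.9% among members and 54.5% among all genes. With upper-quartile scaling in place of TMM these shares were 58.3% and 40.5%. The median log2 change was 0.018 over the tested members and -0.0070 over all tested genes, and the median absolute value was 0.096 and 0.11, respectively. Only IFI44L changed by 1.5-fold or more. A test against a change of 1.2-fold, in place of no change, called 2 members, IFI44L and TRIM22.

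**Figure D1:**
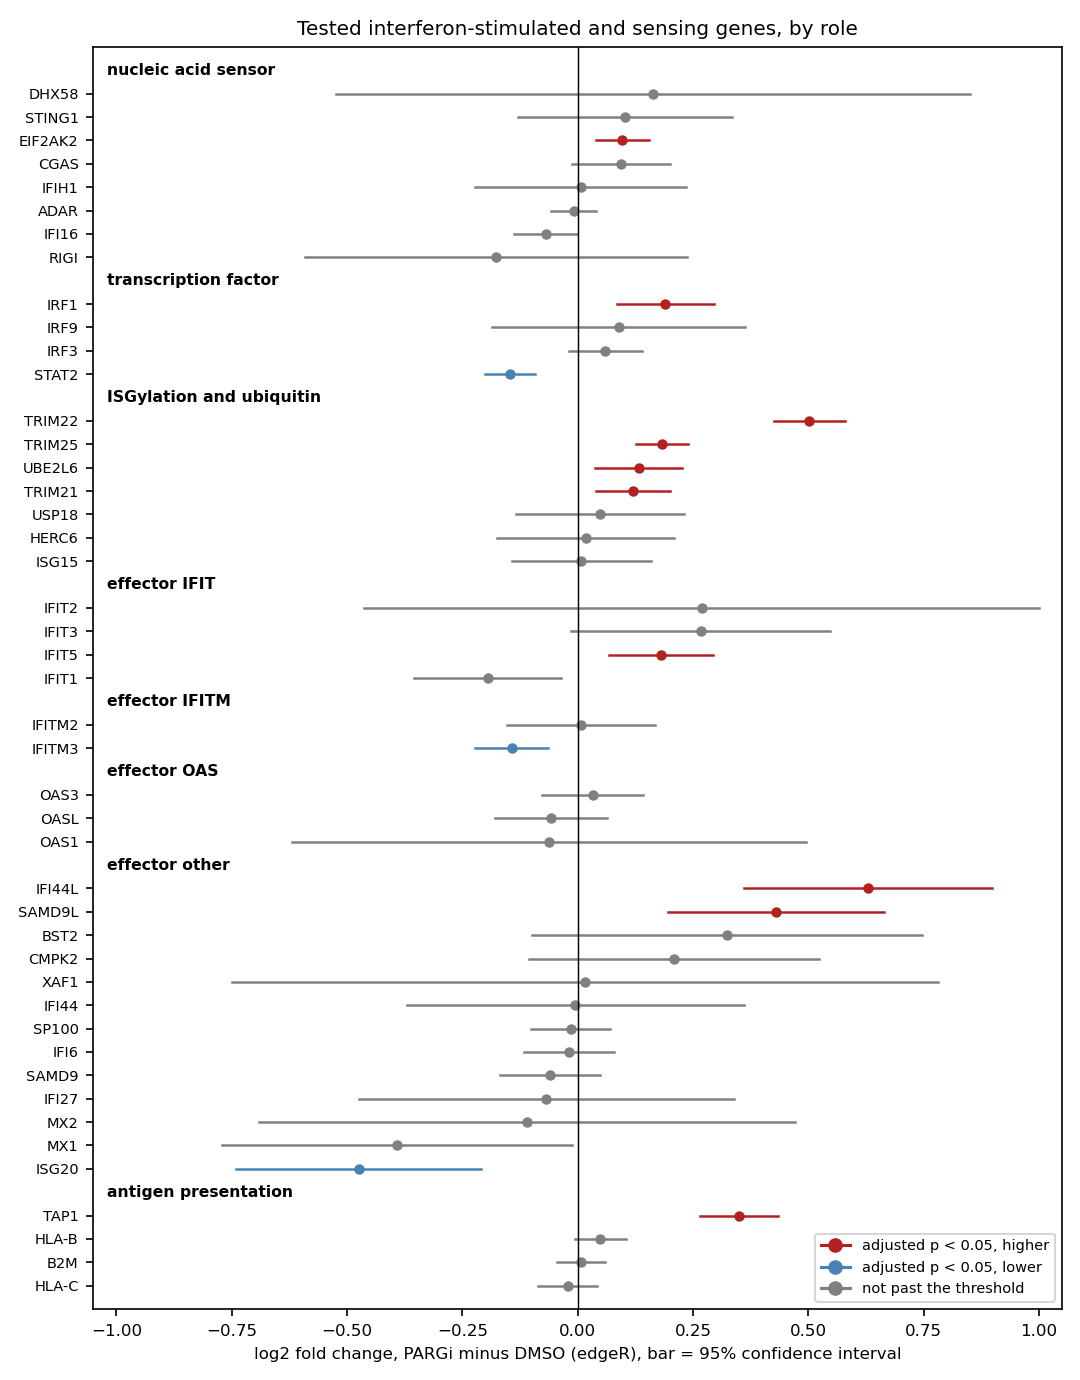
Log2 fold change of each of the 45 tested members (PARGi minus DMSO, 3 libraries each), grouped by role, with 95% confidence intervals as bars. Most points lie between -0.25 and 0.25, and the 13 coloured members are those past an adjusted p of 0.05.

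The groups did not overlap for 20 of the 45 tested members, where 38% of all tested genes had such separated groups (19.8% with PARGi higher and 18.2% with PARGi lower). PARGi was higher in 15 of them and lower in 5. All 13 called members were among the 20. The other 7 were IFIT1 and IFI16, lower in every PARGi library, and IFIT3, IRF9, BST2, CMPK2 and CGAS, higher in every PARGi library, and none of these 7 passed the threshold. The remaining 7 members of the 52 had too few counts to test, at most 39 counts over the 6 libraries: IFITM1, OAS2, IRF7, IFI35, HERC5, RSAD2 and EPSTI1. Of these, RSAD2, which encodes the antiviral enzyme viperin, had 3, 8 and 2 counts in DMSO and 2, 4 and 4 in PARGi. IRF7, the factor that amplifies interferon production, had 5, 0 and 2 counts in DMSO and 2, 0 and 1 in PARGi.

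Promoter windows were searched for the letters of the ISRE core, and members with a match were counted by outcome. RefSeq promoter windows (GRCh38.p14, from 250 bases before a gene's start to 50 bases after it) were at hand for 40 members. The ISRE core, searched on both strands as GAAA, any 2 bases and GAAA again (TTTC, 2 bases and TTTC on the other strand), occurred in 23 of the 40 members (57.5%), against 4.38% of all 27305 genes with such windows. The letters were present in 5 of 9 members called higher, in 2 of 3 called lower in 12 of 23 that were tested without a call and in 4 of 5 that were too scarce to test. TRIM22, the member with the smallest p, is not among the 40. A second set of letters, TTCNNNGAA, the pattern of sites for STAT dimers (GAS), reads the same on both strands and was present in 10 of the 40 members (25%), against 9.38% of all genes. In the members this was 2 of 9 called higher, 0 of 3 called lower, 5 of 23 without a call and 3 of 5 not tested. The members were listed as interferon-stimulated, sensing and antigen presentation genes, so their contrast with all genes reflects that choice. It was not a test of PARG inhibition. A match of letters is a description of the window and not evidence of binding.

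Of these promoters 4 are printed: IFI44L, with the largest rise, TAP1, whose rise had the smallest p among members with the letters, IFITM3, which fell, and ISG15, which was not called. Each run is the 250 bases before the start, 5′ to 3′ on the strand of the gene, with the ISRE core letters in capitals and overlapping matches joined. They lie at chr1:78620198-78620447 (plus strand), chr6:32853705-32853954 (minus strand), chr11:320861-321110 (minus strand) and chr1:1013247-1013496 (plus strand), respectively.
IFI44L: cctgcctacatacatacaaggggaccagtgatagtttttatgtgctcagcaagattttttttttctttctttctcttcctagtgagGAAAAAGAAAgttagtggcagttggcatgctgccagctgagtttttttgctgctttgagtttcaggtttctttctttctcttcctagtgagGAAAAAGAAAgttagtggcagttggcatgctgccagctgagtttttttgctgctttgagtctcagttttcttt
TAP1: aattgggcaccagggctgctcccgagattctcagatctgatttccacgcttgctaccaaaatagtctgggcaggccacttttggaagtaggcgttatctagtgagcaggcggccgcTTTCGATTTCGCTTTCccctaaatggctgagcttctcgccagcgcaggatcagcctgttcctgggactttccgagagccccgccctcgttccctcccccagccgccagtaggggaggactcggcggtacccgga
IFITM3: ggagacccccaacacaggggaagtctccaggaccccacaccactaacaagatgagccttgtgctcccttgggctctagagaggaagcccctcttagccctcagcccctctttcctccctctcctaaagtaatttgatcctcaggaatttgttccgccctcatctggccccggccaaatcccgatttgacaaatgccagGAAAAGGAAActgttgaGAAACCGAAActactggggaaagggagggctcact
ISG15: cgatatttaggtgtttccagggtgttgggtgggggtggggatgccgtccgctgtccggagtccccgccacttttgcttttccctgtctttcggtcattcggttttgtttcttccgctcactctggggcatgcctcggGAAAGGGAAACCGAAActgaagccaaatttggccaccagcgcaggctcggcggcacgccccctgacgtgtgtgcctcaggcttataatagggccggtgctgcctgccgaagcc
Every one of the 4 runs holds a pair of ISRE core matches, on the strand of the gene in IFI44L, IFITM3 and ISG15 and on the other strand in TAP1. In IFI44L both matches sit in a repeat, a run of 85 bases that recurs 91 bases downstream. In ISG15 and in TAP1 the matches overlap each other. IFI44L, which rose, and ISG15, which was not called, thus each carry a pair of matches.

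Among the 8 sensors and RNA-binding antiviral proteins, 1 rose and the other 7 did not pass the threshold (12.5% called, against 24.3% of all tested genes). EIF2AK2 encodes PKR, a kinase that binds double-stranded RNA and shuts down translation. Its level was 72.4, 72.9 and 72.8 CPM with DMSO and 78.9, 79.0 and 75.5 with PARGi. Every PARGi library was above every DMSO library, and the log2 change was 0.096 (SE 0.028, edgeR adjusted p = 0.0131). It lost its call with upper-quartile scaling, without PARGi replicate 1 and without PARGi replicate 2. GPATCH11, on the opposite strand, covers part of the 4.05% of EIF2AK2 exonic bases that overlap other genes there, and rose as well (0.16, edgeR adjusted p = 0.0024).

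CGAS, which encodes the cytosolic DNA sensor cGAS, was transcribed at 12.0, 12.0 and 12.3 CPM with DMSO and 12.7, 13.5 and 12.5 with PARGi. All 3 PARGi libraries were higher, by a log2 difference of 0.094 (95% confidence interval -0.013 to 0.20), which did not pass (edgeR adjusted p = 0.205). STING1, the adaptor downstream of cGAS, was less abundant, at 2.22, 2.32 and 2.27 CPM with DMSO and 2.33, 2.31 and 2.65 with PARGi, with overlapping groups (log2 change 0.10, interval -0.13 to 0.33). Per kb of exon, CGAS stood at 3.01 CPM and STING1 at 0.611 CPM over all 6 libraries. IFI16, a nuclear DNA sensor, was lower in every PARGi library, at 51.3 ± 2.05 CPM with DMSO and 48.9 ± 0.754 with PARGi, and did not pass (log2 change -0.069, edgeR adjusted p = 0.136).

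The RNA sensors of the RIG-I family were scarce. RIGI was at 0.810 ± 0.159 CPM with DMSO and 0.718 ± 0.0621 with PARGi, and DHX58, which encodes the regulator LGP2, at 0.283 ± 0.0868 and 0.329 ± 0.119 CPM. IFIH1, which encodes the long double-stranded RNA sensor MDA5, had 208, 181 and 260 counts in DMSO and 225, 209 and 255 in PARGi, or 3.20 ± 0.332 and 3.25 ± 0.467 CPM. In all 3 genes the groups overlapped, and the intervals were wide: from -0.59 to 0.24 for RIGI, from -0.52 to 0.85 for DHX58 and from -0.22 to 0.24 for IFIH1 on the log2 scale. ADAR, which edits double-stranded RNA and so hides it from MDA5, was by contrast abundant, at 346 ± 3.59 CPM with DMSO and 343 ± 2.84 with PARGi. Its log2 change was -0.0090, with the interval from -0.058 to 0.040, so changes beyond about -3.92% or 2.78% lie outside it.

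Of the 4 tested transcription factors, 1 fell, 1 rose and the other 2 did not pass (50% called, against 24.3% of all tested genes). STAT2, the subunit of the ISGF3 complex that carries its activation domain, stood at 92.4, 91.9 and 91.9 CPM with DMSO and at 83.5, 84.3 and 81.7 with PARGi. The 3 DMSO values lay within 1 CPM of each other and above every PARGi value, and the log2 change was -0.15 (SE 0.026, edgeR adjusted p = 0.000198). IRF1, a factor that is itself induced by interferon gamma and drives antigen presentation genes, was at 13.2, 13.3 and 14 CPM with DMSO and 15.4, 14.7 and 16.2 with PARGi. It rose by 0.19 (SE 0.051, edgeR adjusted p = 0.00728), with all PARGi libraries above all DMSO libraries. The call was lost without PARGi replicate 3. IRF1-AS1, on the opposite strand of the same locus, was near 1 CPM in both groups.

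IRF9, the DNA-binding subunit of ISGF3, was scarce beside STAT2, at 0.418 against 14.3 CPM per kb of exon. It stood at 1.61, 1.60 and 1.41 CPM with DMSO and 1.63, 1.64 and 1.63 with PARGi, and the difference of 0.089 on the log2 scale was within its error (SE 0.13, edgeR adjusted p = 0.687). Its value is uncertain, since 48.4% of its exonic bases overlap another annotated gene on the same strand. IRF3, the factor that the sensors activate, was at 80.8 ± 6.14 CPM with DMSO and 84.3 ± 2.21 with PARGi, with overlapping groups (log2 change 0.060, edgeR adjusted p = 0.282). BCL2L12, on the opposite strand, overlaps 19.3% of the exonic bases of IRF3 and rose (0.18, edgeR adjusted p = 3.24e-05). Its part in the IRF3 counts was not tested. DMSO replicate 2 was the lowest of the 6 libraries for IRF3, at 73.9 CPM. Without DMSO replicate 3 the value was 0.11 and passed (edgeR adjusted p = 0.0277).

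Genes of ubiquitin and ISG15 conjugation held the strongest rise by p. TRIM22 encodes an antiviral TRIM-family ubiquitin ligase, known as a target of both interferon and p53, and lies on chromosome 11 (GENCODE 29, GRCh38, 5689689 to 5737089, plus strand). It had 1550, 1507 and 1854 counts in DMSO and 2029, 2537 and 2835 in PARGi, or 24.4, 23.7 and 24.9 CPM against 33.8, 34.3 and 35.2 CPM. The 2 groups were far apart beside the SD of 0.63 and 0.722 CPM within them, and the log2 change was 0.50 (SE 0.037, edgeR adjusted p = 4.42e-10). The call held in all 15 alternatives. OR56B1, an olfactory receptor gene that overlaps TRIM22 on its strand, had 3 counts in 1 library and 0 in the other 5. A larger absolute change than that of TRIM22 was found in 7.43% of all tested genes.

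TRIM25, the ligase that ubiquitinates RIG-I, rose from 66.0, 65.7 and 65.5 CPM in DMSO to 74.3, 75.8 and 73.9 CPM in PARGi (log2 change 0.18, SE 0.027, edgeR adjusted p = 1.91e-05). The DMSO libraries again were close together and all below the PARGi libraries. TRIM21, a cytosolic antibody receptor and ubiquitin ligase, rose from 25.5 ± 0.778 to 27.8 ± 0.525 CPM (0.12), and UBE2L6, the conjugating enzyme for ISG15, from 17 ± 0.523 to 18.6 ± 0.648 CPM (0.13). Their edgeR adjusted p-values were 0.0246 and 0.0363, and each lost its call in 7 of 15 alternatives, DESeq2, upper-quartile scaling and leaving out DMSO replicate 1, DMSO replicate 2 or PARGi replicate 1 among them. TRIM21 also lost it without PARGi replicate 2 and UBE2L6 without PARGi replicate 3. ISG15, the ubiquitin-like modifier that UBE2L6 passes on, did not pass. It was at 7.33, 6.74 and 6.73 CPM with DMSO and 7.27, 7.36 and 6.33 with PARGi, with overlapping groups and a log2 change of 0.0080 (interval -0.14 to 0.16, which is -9.37% to 11.6%). USP18, which removes ISG15 and dampens the interferon receptor, was at 3.61 ± 0.0614 and 3.73 ± 0.128 CPM and did not pass either. HERC6 was at 6.07 ± 0.509 and 6.13 ± 0.972 CPM, and HERC5, the human ISG15 ligase, had 1, 0 and 1 counts in DMSO and 0 in each PARGi library.

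**Figure D2:**
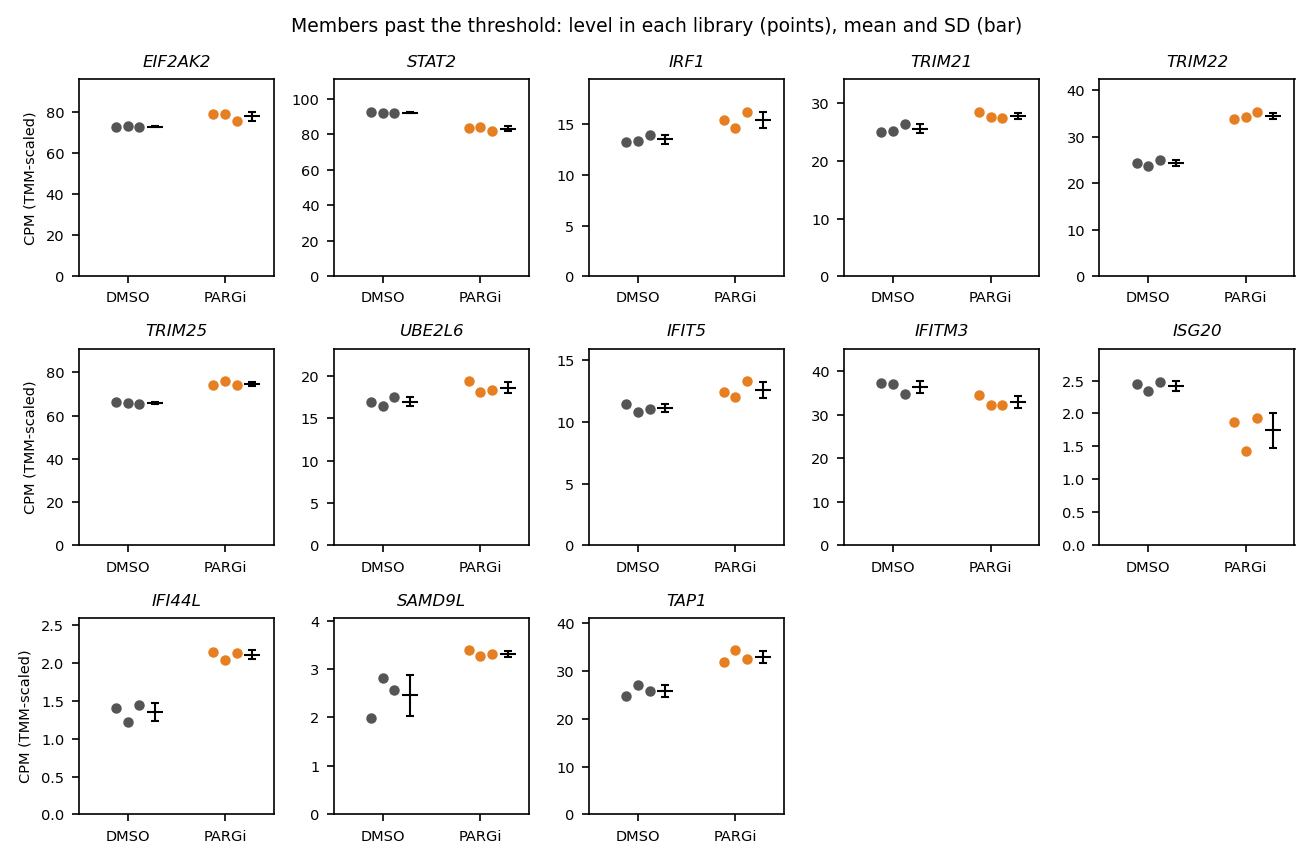
Level of the 13 called members in each library (points, CPM after TMM scaling, axes from 0), with mean and SD of 3 libraries beside them. In every panel the PARGi points lie wholly above or wholly below the DMSO points, with TRIM22 at 24.3 against 34.5 CPM and STAT2 at 92.0 against 83.2 CPM on average.

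Of the 4 IFIT genes, whose products bind foreign RNA ends, 1 rose and 3 did not pass (25% called, against 24.3% of all tested genes). IFIT5 was at 11.4, 10.8 and 11 CPM with DMSO and 12.4, 12 and 13.3 with PARGi, a rise of 0.18 (SE 0.055, edgeR adjusted p = 0.017) that was lost with DESeq2 and without PARGi replicate 3. IFIT3 stood at 1.39, 1.27 and 1.40 CPM with DMSO and at 1.67, 1.60 and 1.63 with PARGi, higher in every library, but did not pass (log2 change 0.27, SE 0.14, edgeR adjusted p = 0.166). IFIT1, a standard reporter of interferon signalling, was lower in every PARGi library, at 5.56, 6.09 and 5.54 CPM with DMSO and 5.32, 4.78 and 4.95 with PARGi. Its log2 change of -0.20 had an edgeR adjusted p of 0.0697, and it passed with upper-quartile scaling (-0.22, edgeR adjusted p = 0.0412). IFIT2 had 12 to 22 counts per library, and its interval ran from -0.46 to 1.00.

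Of the IFITM genes, which encode membrane proteins that block viral entry, IFITM3 fell and IFITM2 did not pass. IFITM3 was at 37.3, 37.1 and 34.9 CPM with DMSO and at 34.5, 32.2 and 32.2 with PARGi, where the lowest DMSO library lay just above the highest PARGi library. The log2 change was -0.14 (SE 0.038, edgeR adjusted p = 0.00745), and the call was lost without PARGi replicate 2 and without PARGi replicate 3. IFITM2 was at 6.08 ± 0.606 and 6.11 ± 0.286 CPM. The IFITM genes are close copies of each other, so reads may have been divided among them and their values are uncertain. Of the OAS genes, OAS1, OAS2 and OAS3 encode enzymes that make the activator of RNase L. With OASL included, the OAS genes gave 0 calls among 3 tested genes with edgeR. They gave 0 with an unadjusted p under 0.05 and 0 of the 2 that DESeq2 tested. Of all tested genes 24.3% were called with edgeR. OASL was at 15.2 ± 1.27 and 14.6 ± 0.954 CPM, OAS3 at 12.2 ± 0.684 and 12.5 ± 0.11 CPM, and OAS1 at 0.410 ± 0.0559 and 0.388 ± 0.0927 CPM, and OAS2 had 2 to 10 counts per library.

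Of the 13 tested among the 16 other effectors, 2 rose and 1 fell (23.1% called, against 24.3% of all tested genes). IFI44L, a neighbour of IFI44 on chromosome 1 and a common marker of an interferon signature in blood, had 89, 78 and 108 counts in DMSO and 129, 151 and 172 in PARGi. In CPM this was 1.40, 1.23 and 1.45 against 2.15, 2.04 and 2.14, with the groups well apart. The log2 change of 0.63 (SE 0.13, edgeR adjusted p = 0.000827) was the largest of the members and was exceeded in absolute size by 4.4% of all tested genes. IFI44 itself was at 1.29 ± 0.0978 CPM with DMSO and 1.3 ± 0.346 with PARGi, with overlapping groups (log2 change -0.0051). Whether the 2 neighbours differ in their response was not tested.

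SAMD9L, which encodes a restriction factor that limits translation, was at 1.99, 2.81 and 2.57 CPM with DMSO and 3.38, 3.26 and 3.31 with PARGi. DMSO replicate 1 was the lowest library, the 3 PARGi libraries were close together, and the log2 change was 0.43 (SE 0.11, edgeR adjusted p = 0.0067). Without DMSO replicate 1 the call was lost. Its neighbour SAMD9 was at 14.2 ± 0.713 and 13.7 ± 0.65 CPM and did not pass. ISG20, an exonuclease gene for RNA, fell from 2.44, 2.34 and 2.47 CPM to 1.87, 1.43 and 1.93 CPM (log2 change -0.47, SE 0.13, edgeR adjusted p = 0.00811), and the call was lost without PARGi replicate 2, the lowest library.

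The other classical effectors gave no call. IFI6, a mitochondrial survival protein, was at 14.9, 15.9 and 15.4 CPM with DMSO and 15.5, 15.2 and 14.8 with PARGi, a log2 difference of -0.019 (interval -0.12 to 0.079). MX1, the antiviral dynamin-like GTPase, was at 1.26, 0.926 and 1.07 CPM with DMSO and 0.784, 0.730 and 0.957 with PARGi, with a log2 change of -0.39 and overlapping groups (edgeR adjusted p = 0.13). IFI27, among the most inducible genes of the set in other cells, was at 0.870 ± 0.213 CPM with DMSO and 0.825 ± 0.053 with PARGi. BST2, which tethers budding virus, had 36, 36 and 48 counts in DMSO and 39, 61 and 60 in PARGi (log2 change 0.32, interval -0.099 to 0.75). CMPK2, a nucleotide kinase gene next to RSAD2, was at 1.15 ± 0.0262 and 1.34 ± 0.13 CPM (0.21, interval -0.10 to 0.52). SP100, a nuclear body protein, was at 24 ± 1.01 and 23.7 ± 0.605 CPM, and MX2 and XAF1 each had at most 30 counts in a library. The intervals of these scarce genes were wide, from -0.75 to 0.78 for XAF1 and from -0.69 to 0.47 for MX2, so that a fall as large as the rise of TRIM22 lay inside both.

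**Figure D3:**
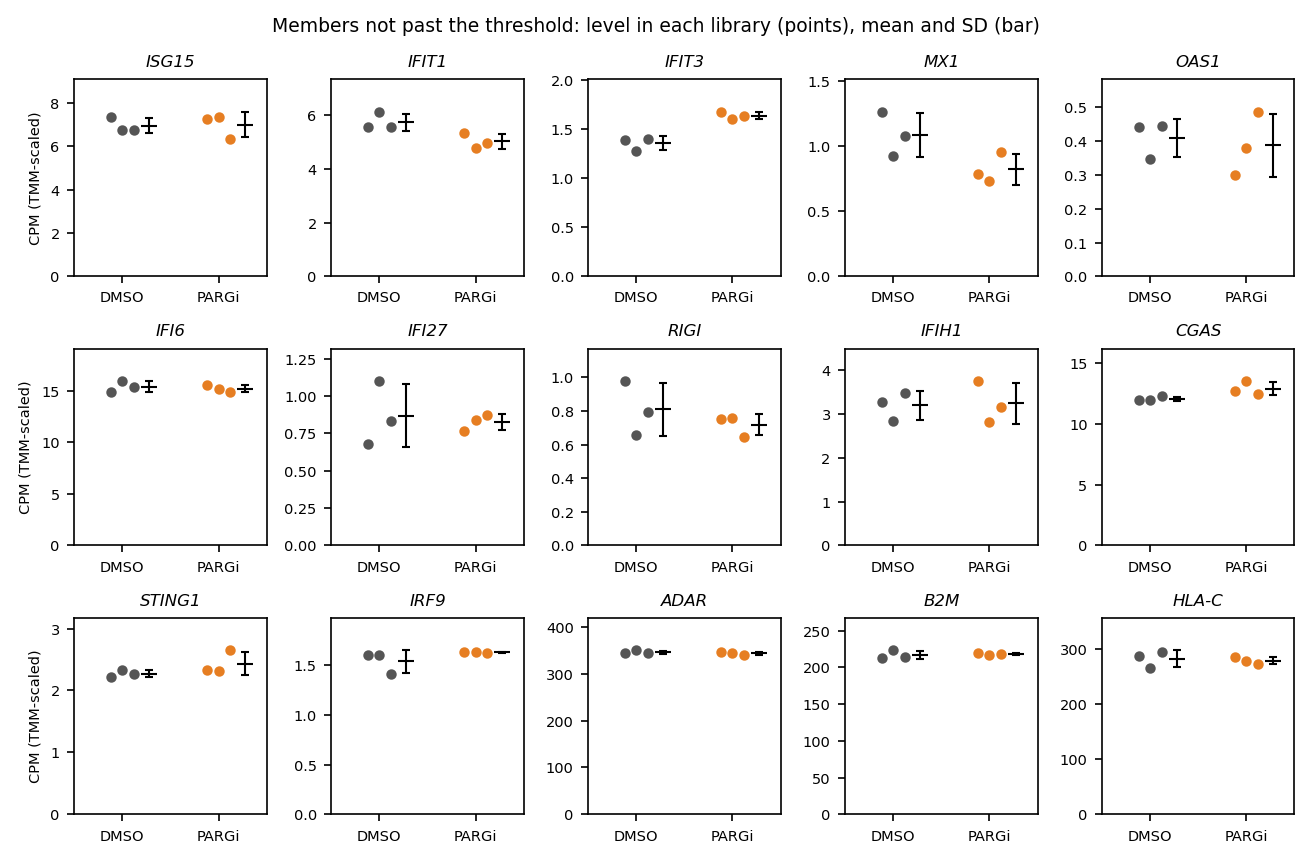
Level of 15 members that did not pass the threshold, in each library (points, CPM after TMM scaling, axes from 0), with mean and SD of 3 libraries. The DMSO and PARGi points overlap for ISG15, IFI6, ADAR, B2M and HLA-C, and they are apart without a call for IFIT1, IFIT3, IRF9 and CGAS.

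In antigen presentation, the transporter gene rose and the class I genes did not pass. TAP1 encodes a subunit of the transporter that moves peptides into the endoplasmic reticulum. It was at 24.7, 27.1 and 25.8 CPM with DMSO and 32, 34.4 and 32.6 with PARGi, with every PARGi library above every DMSO library. The log2 change was 0.35 (SE 0.041, edgeR adjusted p = 6.6e-07), and the call held in all alternatives except the test against a change of 1.2-fold. HLA-C, HLA-B and B2M had the highest levels per length of the members, at 112, 48.7 and 35.7 CPM per kb of exon, followed by ADAR at 35.6. HLA-C stood at 282 ± 15.1 CPM with DMSO and 278 ± 6.24 with PARGi, HLA-B at 146 ± 3.74 and 151 ± 2.35 CPM, and B2M, the light chain of class I molecules, at 217 ± 5.72 and 218 ± 1.34 CPM. Their intervals were narrow, from -0.086 to 0.042, from -0.0054 to 0.10 and from -0.045 to 0.060 on the log2 scale. HLA genes vary between genomes and resemble each other, so reads may be divided or lost among them.

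A wider list of 141 other genes of the pathway was compared in the same fit, and 103 of them had enough counts. Of these, 28 (27.2%) passed, 21 as higher and 7 as lower, again near the 24.3% of all genes, with a median log2 fold change of 0.012. The largest rises among the called genes of both lists were those of APOL1 (0.82, edgeR adjusted p = 0.00292) and TLR3 (0.65, edgeR adjusted p = 0.0352). Both were scarce, at 32 to 90 and 23 to 83 counts in a library. Interferon transcripts themselves were not seen at this depth: 20 of 21 ligand genes, IFNB1 among them, had 0 counts in all 6 libraries, and a count of 0 allows up to 3 counts in a library. IFNE, the exception, had 2 to 10 counts per library. The IFNA genes are near-identical copies, whose shared reads may not have been counted.

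Between ligand and gene, 4 of 11 receptors and signal transducers passed (36.4%, against 24.3% of all tested genes). IFNAR1, a chain of the type I interferon receptor, rose from 56.8, 55.9 and 54.7 CPM to 63.1, 62.9 and 64.0 CPM (log2 change 0.18, SE 0.029, edgeR adjusted p = 3.85e-05). TYK2, the kinase bound to that chain, rose by 0.092 and IFNGR1 by 0.11, and both lost the call with upper-quartile scaling. TYK2 also lost it without DMSO replicate 1 and without PARGi replicate 1, and IFNGR1 without DMSO replicate 2 or 3 and without PARGi replicate 2 or 3. IFNAR2, the other chain, was at 12.9 ± 1.15 and 14.1 ± 0.533 CPM with overlapping groups, and JAK1 at 150 ± 1.76 and 151 ± 2.9 CPM. The value of IFNAR2 is uncertain, since 44.2% of its exonic bases overlap another gene on its strand and 39.1% a gene on the opposite strand. STAT3 fell by 0.090 on the log2 scale (edgeR adjusted p = 0.0101), a call lost without PARGi replicate 3.

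Among 16 tested sensors, adaptors and kinases, 4 rose and 2 fell (37.5% called, against 24.3% of all tested genes). MAVS, the mitochondrial adaptor of RIG-I and MDA5, was at 111, 114 and 117 CPM with DMSO and 126, 125 and 125 with PARGi (log2 change 0.14, edgeR adjusted p = 0.000364). TRAF3, a ligase that works downstream of MAVS, rose by 0.21 (edgeR adjusted p = 9.68e-05), and TICAM1, the adaptor of TLR3, by 0.17, a call lost in 7 of 15 alternatives (without DMSO replicate 1 or 2 and without PARGi replicate 1 or 3 among them). TBK1, the kinase that activates IRF3, was at 43.8 ± 1.59 and 44.7 ± 0.539 CPM and did not pass. IRF2, a repressor of IRF1 sites, fell (-0.21), as did IRF2BP1 (-0.16). Among nucleases and related genes SAMHD1, which breaks down deoxynucleotides, rose from 42.4 ± 0.513 to 50.9 ± 1.25 CPM (0.26, edgeR adjusted p = 1.03e-06), BANF1 rose by 0.088 (lost with upper-quartile scaling, without DMSO replicate 2 and without PARGi replicate 1), and the RNA helicase gene SKIC2 fell by 0.11.

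Of the 9 feedback genes 3 fell and 1 rose (44.4% called, against 24.3% of all tested genes). SOCS3 and SOCS1 had the largest falls among the called genes of both lists. SOCS3, an inhibitor of JAK kinases, was at 57.2, 54.4 and 57.9 CPM with DMSO and at 39.2, 36.6 and 35.9 with PARGi, with a wide gap between the groups (log2 change -0.60, SE 0.036, edgeR adjusted p = 1.02e-11). SOCS1, its relative that acts on interferon signalling, went from 9.15, 10.3 and 9.65 CPM to 7.40, 6.68 and 5.94 CPM (-0.55, SE 0.073, edgeR adjusted p = 4.97e-06). The phosphatase gene PTPN2 fell by 0.093, a call lost in 9 of 15 alternatives (DESeq2, the replicate block and 5 of the 6 libraries left out, all but DMSO replicate 2, among them), and TRIM38 rose by 0.23.

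In antigen presentation beyond the members, 2 of 16 tested genes passed (12.5%, against 24.3% of all tested genes), both as higher. PSMB9, an immunoproteasome subunit gene next to TAP1, had 392, 337 and 438 counts in DMSO and 453, 505 and 559 in PARGi, or 5.79 ± 0.451 and 7.11 ± 0.387 CPM (log2 change 0.29, edgeR adjusted p = 0.00476). TAP2, the partner of TAP1, rose by 0.17, lost that call in the same 7 alternatives as TICAM1, and shares 32.3% of its exonic bases with another gene on its strand. Of 39 further interferon-stimulated genes that were tested, 9 rose and 0 fell (23.1% called, against 24.3% of all tested genes). An unadjusted p under 0.05 was found for 19 of the 39, and for 7142 of all 20409 tested genes. SLFN5, a Schlafen-family gene, rose from 10, 10.5 and 10.6 CPM to 15.2, 16.1 and 15.5 CPM (0.59, SE 0.051, edgeR adjusted p = 6.35e-09). GBP3, a guanylate-binding protein gene, rose from 5.29, 4.93 and 6.02 CPM to 7.99, 8.87 and 8.14 CPM (0.62, SE 0.076, edgeR adjusted p = 1.39e-06). APOBEC3B, a cytidine deaminase gene that shares exonic bases with APOBEC3A on its strand, rose from 102 ± 2.56 to 119 ± 2.32 CPM (0.22).

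**Figure D4:**
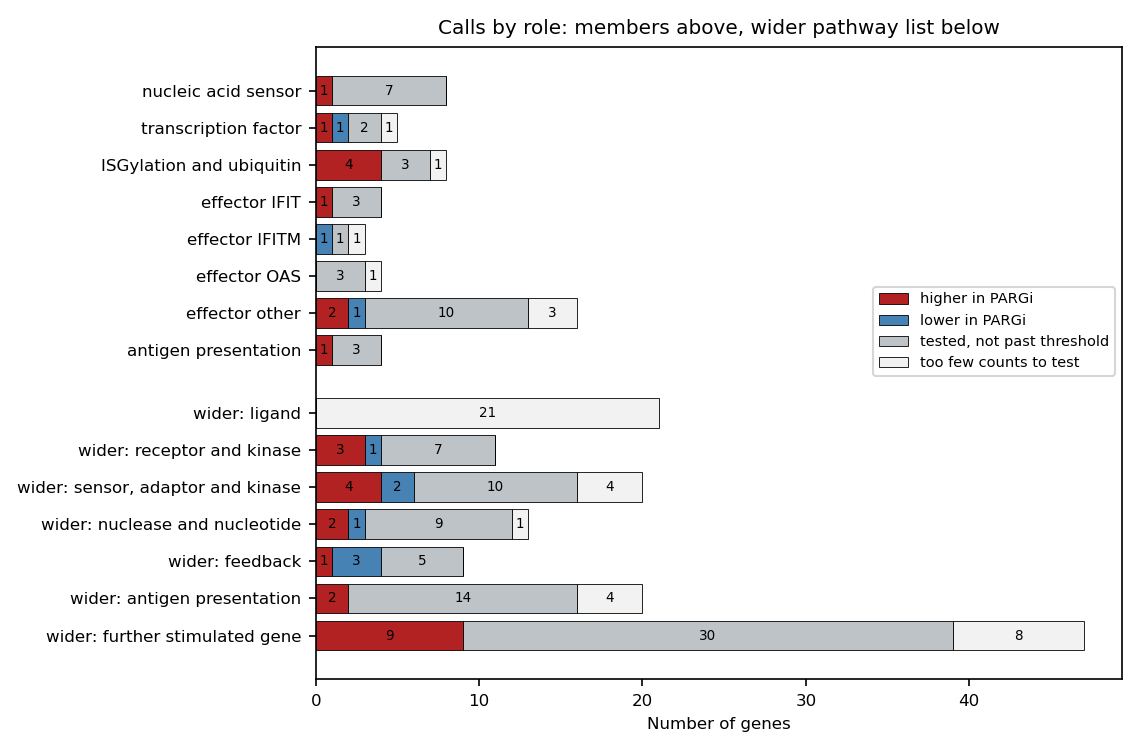
Number of genes in each role that were called higher, called lower, tested without a call or too scarce to test, for the 52 members (upper bars) and the 141 other pathway genes (lower bars). In no bar do called genes outnumber the other genes, and all 21 interferon ligand genes had too few counts for a test.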

How the data were processed

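RNA-seq of U2OS cells gave 3 DMSO and 3 PARGi libraries, made with a strand-marking total RNA kit per the labels' protocols. The authors deposited raw whole-number read counts per gene, with no header. The submitters' processing notes name cutadapt 1.18, STAR 2.7.3a, SAMtools 1.9, DESeq2 (version given as 3.12), deepTools and the build hg38. The annotation release and the strand setting are not given in the sources used here. For 416 genes at least 95% inside exons of an abundant gene on the other strand, the median summed count was 14. It was 23090 in the partners, and 364 of the 416 had counts. Counting that drops reads shared between genes gives low values there without strand information too. The strand setting therefore stays unknown, and overlaps on either strand may affect a gene's counts.

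Genes were matched without version suffix to GENCODE 29, which held 58396 of 60708 identifiers; exonic lengths are unions over its transcripts. In R 4.3.3, edgeR 4.0.16 was used with filterByExpr, TMM, glmQLFit and two-sided glmQLFTest on treatment alone (95% intervals, unadjusted). SE is the absolute log2 fold change over the square root of F. In simulated counts for this comparison of 20409 genes, 40% of genes changed by 0.2 (log2) and 71.4% of those changed by 0.5 were called. The simulation changed only a small part of the genes and gave all genes the same dispersion. In the data 24.3% of genes were called, so these shares need not hold there. The alternatives used DESeq2 1.42.0, limma 3.58.1, other scalings, filters and dispersions, a replicate block, a 1.2-fold threshold and each library left out.

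The members and lists were chosen with earlier results of these data known. Named were all called members, fixed sensors, factors and reporters, and, of the wider list, up to 3 genes called in each direction per role with the smallest p and 6 fixed genes. APOL1 and TLR3 were named for the size of their rises and were not followed through the alternatives. Replicate pairs differed beyond sampling noise. If replicates were not separate cultures, p-values measure technical spread only. Figures were drawn with matplotlib 3.10.9. Some genes of the lists are counted but not reported by name.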

Additional observations from a re-analysis of the deposited data

How the results depend on the processing

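Across 15 alternatives and 56 named genes, 729 of 838 values kept their direction and their side of the threshold, 82 lost the call, 4 gained one and 23 changed sign, of which 0 belonged to called genes. The members called numbered 13, with 10 by DESeq2, 12 with upper-quartile scaling and 9 to 14 with 1 library left out (7 to 11 higher, 1 to 3 lower). Only 1 member was called lower without PARGi replicate 2. Upper-quartile scaling gave 5 members called lower (IFIT1 and IFI16 added) and turned the members' median to -0.0065, with -0.0315 over all genes. Against a change of 1.2-fold, 2 members passed (2 higher, 0 lower), with 465 of all genes and 4 of the wider list. Without DMSO replicate 3, IFNAR2 passed (0.19, edgeR adjusted p = 0.014).

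With all 6 libraries, the log2 fold changes that turned sign were small. They were -0.00535 for IFIH1 with limma-voom, and with upper-quartile scaling -0.01638 for ISG15, -0.01778 for IFIH1, -0.01726 for B2M and -0.01499 for JAK1. With 1 library left out the values ran from -0.03433 to 0.07967 for ISG15, -0.2626 to 0.07485 for OAS1, -0.09784 to 0.09704 for IFIH1, -0.103 to 0.4395 for DHX58, -0.04408 to 0.004917 for IFI6, -0.2136 to 0.1258 for IFI27, -0.01645 to 3.626e-06 for ADAR, -0.006792 to 0.02993 for B2M, -0.06402 to 0.007981 for HLA-C and -0.003652 to 0.02462 for JAK1. The turned values of IFIH1 (-0.09784), DHX58 (-0.103) and IFI27 (0.1258) were larger in absolute size than the median of 0.096 over the tested members. The cause was not tested.

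Same-numbered replicates did not deviate together (r = -0.009, -0.007 and -0.057 over 14878 genes). With the replicate block, 13 members, 27 wider genes and 4553 of all genes were called, against 13, 28 and 4951 without it. Depth limits the scarce genes: the 7 members with at most 39 counts in all were not tested.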
